A study of Caenorhabditis elegans with 18 samples.

Results

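Small RNAs of the *Caenorhabditis elegans* alleles *tcer-1(tm1452)* and *tcer-1(glm27)* were set directly against each other, over every class of small RNA that was annotated. A feature (a gene with 22G-RNAs or 26G-RNAs, a piRNA, a miRNA arm or a 23H-RNA sequence) was included where its mean over the 9 small RNA libraries was at least 2 RPM (reads of the feature scaled to a common library total), which kept 8073 of 25899 features. The groups were wildtype (N2), *tcer-1(tm1452)* (strain CF2166) and *tcer-1(glm27)* (strain AGP278), with 3 libraries each, and whole gravid hermaphrodites were collected 72 hours after plating of synchronized larvae at 20 °C on *Escherichia coli* OP50. The study asked whether TCER-1, a nuclear protein of transcription elongation and splicing, acts in small RNA pathways, and each allele is represented by a single strain. Per the study's text, *tcer-1(tm1452)* animals develop asynchronously, while *tcer-1(glm27)*, made by CRISPR to remove the whole gene, does not show this, so developmental timing and strain background cannot be told apart from the allele in this comparison. mRNA libraries of the same 3 strains and age, 3 each, were a second readout.

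In *C. elegans*, 22G-RNAs are made by RNA-dependent RNA polymerases on target transcripts and are bound by worm-specific Argonautes (WAGO class), which silence their targets, or by CSR-1, which binds small RNAs against most germline-expressed genes. Primary small RNAs set this off: piRNAs bind the Argonaute PRG-1, and 26G-RNAs bind ALG-3 and ALG-4 during spermatogenesis or ERGO-1 in oocytes and embryos. miRNAs are genome-encoded regulators of mRNAs, many of them tied to a stage or tissue, and 23H-RNAs are listed as a further class of short RNAs.

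Differences are given as log2(RPM + 1) in *tcer-1(tm1452)* minus that in *tcer-1(glm27)*, with the standard error (SE) and the Benjamini-Hochberg adjusted p of limma over all 8073 features. A feature was called lower or higher in *tcer-1(tm1452)* where the adjusted p was under 0.05 and the difference at least 2-fold on this scale. The RPM steps put the libraries at 12900000 to 16000000 reads. Pearson correlations of log2 values within a group ran from 0.992 to 0.996, except that *tcer-1(tm1452)* replicate 3 correlated with the other *tcer-1(tm1452)* libraries at 0.937 and 0.942, and values without it are given beside named calls that rest on it. The replicates were numbered, but the labels do not say that they were separate cultures, and p-values measure the spread between these libraries.

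The targeted gene was read first. *tcer-1* (WBGene00022855) lies on chromosome II, at 7045874 to 7050071 of WBcel235, on the minus strand, and the guide and homology sequences of the *tcer-1(glm27)* edit bound a planned deletion from 7045509 to 7050121, 4613 bases that hold 12 of its 12 exons. The guides are shown because they fix which bases *tcer-1(glm27)* should lack. Their protospacers lie at II:7050106-7050125 on the plus strand and II:7045505-7045524 on the minus strand, and the capitals mark the PAM that follows each in the genome.
right guide: aaaacagtagtctagcataaTGG
left guide: tccaacgataaatttgagtaCGG

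*tcer-1* mRNA stood at 5877, 6034 and 6346 normalized counts in wildtype, at 959, 862 and 1026 in *tcer-1(tm1452)* and at 529, 496 and 470 in *tcer-1(glm27)*. Both alleles lay far under wildtype in every library, and *tcer-1(glm27)* was the lower (log2 difference 0.93, limma adjusted p = 7.04e-08). In the CSR-1 class, 22G-RNAs listed at *tcer-1* ran the other way. They stood at 19.4, 19.6 and 19.5 RPM in wildtype, 15.8, 16.3 and 15 in *tcer-1(tm1452)* and 45.6, 45.0 and 43.6 in *tcer-1(glm27)*, with no overlap between the alleles (log2 difference -1.46, SE 0.05, limma adjusted p = 3.75e-07). Of the exonic 22-base words of *tcer-1*, 34.7% also occur elsewhere in the genome and 30.2% occur in the pseudogene ZK1127.6, which lies next to *tcer-1* at 7043055 to 7044371 and outside the planned deletion. ZK1127.6 mRNA was 1558, 1687 and 1723 in wildtype, 353, 338 and 338 in *tcer-1(tm1452)* and 158, 179 and 156 in *tcer-1(glm27)*, lower in both alleles as at *tcer-1*. Whether reads listed at *tcer-1* in *tcer-1(glm27)* came from the pseudogene was not tested.

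Several genes on the upstream side of *tcer-1* shared the direction of its 22G-RNAs. Within 30 kb, 13 genes had 22G-RNAs tested and 5 were lower in *tcer-1(tm1452)*, against 2.82% of all 5470 genes with 22G-RNAs, and 0 were higher (0 also at an unadjusted p under 0.05 by limma, where 9 were lower). The 5 were *tcer-1* itself, which sets the window, ZK1127.4, ZK1127.3, *cth-2*, which encodes cystathionine gamma-lyase, and *kars-1*, which encodes lysyl-tRNA synthetase. Of these, *cth-2* reached 2 RPM in *tcer-1(glm27)* alone, so it passed the filter only through the allele where it was high. At *cth-2*, 22G-RNAs were 1.07, 0.88 and 1.75 RPM in *tcer-1(tm1452)* and 5.34, 4.03 and 4.26 in *tcer-1(glm27)*, against 0.49, 0.42 and 0.85 in wildtype (log2 difference -1.32, SE 0.19, limma adjusted p = 0.000841). Its mRNA also lay between wildtype and *tcer-1(glm27)*, at 2823, 2971 and 2922 normalized counts in wildtype, 8021, 9946 and 9851 in *tcer-1(glm27)* and 4680, 4889 and 4965 in *tcer-1(tm1452)*. The germline regulator *nos-2*, a Nanos homolog nested in *him-14*, had 22G-RNAs at 6.77, 6.09 and 6.53 RPM in *tcer-1(tm1452)* and 11.9, 12.8 and 11.7 in *tcer-1(glm27)*, a difference of -0.82 that was under 2-fold. Beyond *kars-1* on that side, T02G5.7 (-0.09) and T02G5.11 (-0.13) differed little and had no call. On the other side, *cin-4* (-0.01) and *lst-6* (0.03) hardly differed between the alleles, while *znf-598* was lower but under 2-fold (-0.30, limma adjusted p = 0.0233). Further out the excess thinned, with 6 of 47 genes lower within 250 kb and 9 of 144 within 1000 kb.

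**Figure D1:**
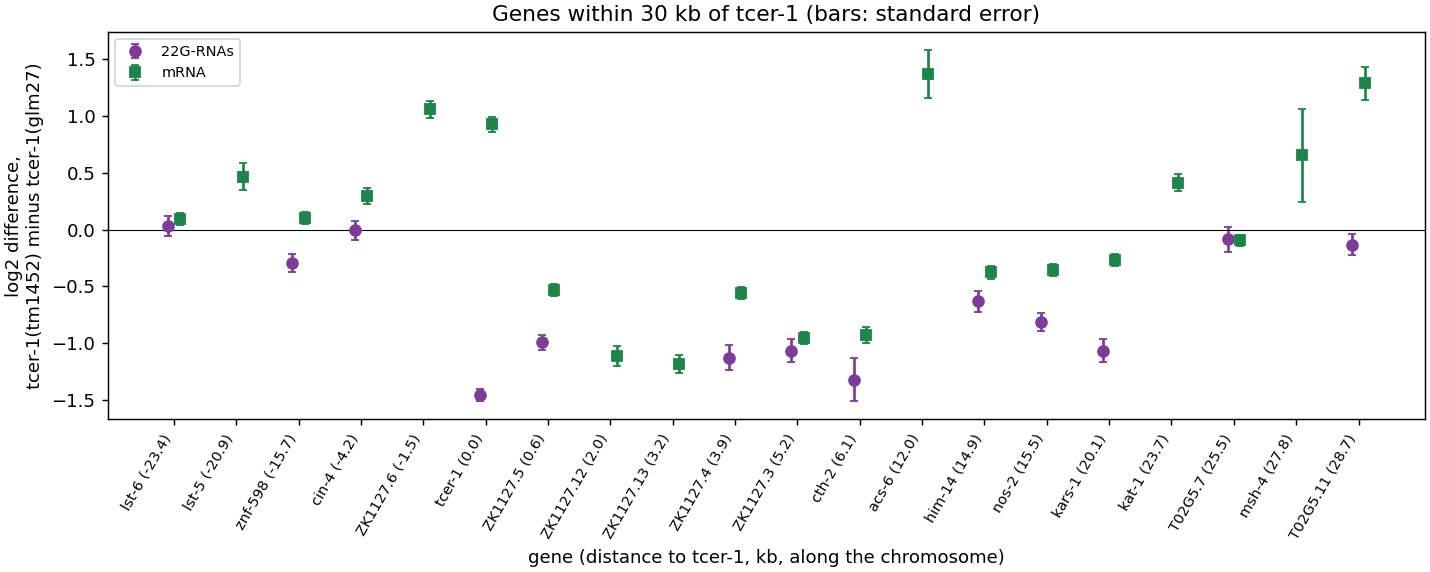
Log2 difference (*tcer-1(tm1452)* minus *tcer-1(glm27)*) of 22G-RNAs and of mRNA for each gene within 30 kb of *tcer-1*. Genes are in chromosome order with the distance in kb, and bars are moderated standard errors of limma from the fit of all 9 libraries of a kind. 22G-RNAs lay below 0 from *tcer-1* (-1.46) to *kars-1* (-1.07) on the upstream side, and nearer 0 at T02G5.7 and T02G5.11 beyond it. On the other side they lay near 0 at *lst-6* and *cin-4* and at -0.30 at *znf-598*.

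Over all classes, *tcer-1(tm1452)* had lower levels than *tcer-1(glm27)* at 231 features (2.86%) and higher levels at 354 (4.38%). A further count at adjusted p under 0.05 of any size gave 904 lower and 1393 higher, and the libraries of the alleles did not overlap for 1311 lower (16.2%) and 2147 higher (26.6%) features. Most calls were 22G-RNAs of the WAGO class, with 123 lower and 178 higher of 2064. The CSR-1 class, the largest, had 10 lower and 11 higher of 3154. Of 5470 separate genes with 22G-RNAs, 154 were lower (2.82%) and 239 higher (4.37%), since 404 genes are listed in more than 1 class with the same values. The summed shares of the large classes lay close: WAGO class 22G-RNAs took 38.6% ± 3.96 (SD, n = 3) of the listed reads of *tcer-1(tm1452)* against 38.6% ± 0.396 of those of *tcer-1(glm27)*, miRNAs 47.7% ± 3.29 and 48% ± 0.927, and CSR-1 class 22G-RNAs 7.84% ± 0.654 and 7.56% ± 0.474. With 3 against 3 the two-sided exact permutation test cannot go under 0.1, so none of the 10 class shares could pass 0.05. The 3 classes that reached 0.1 (adjusted p = 0.333, exact permutation) were ALG-3/4 class 26G-RNAs, with 5.07 times the share in *tcer-1(tm1452)*, ERGO-1 class 26G-RNAs (0.360 times) and 23H-RNAs (1.48 times).

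**Figure D2:**
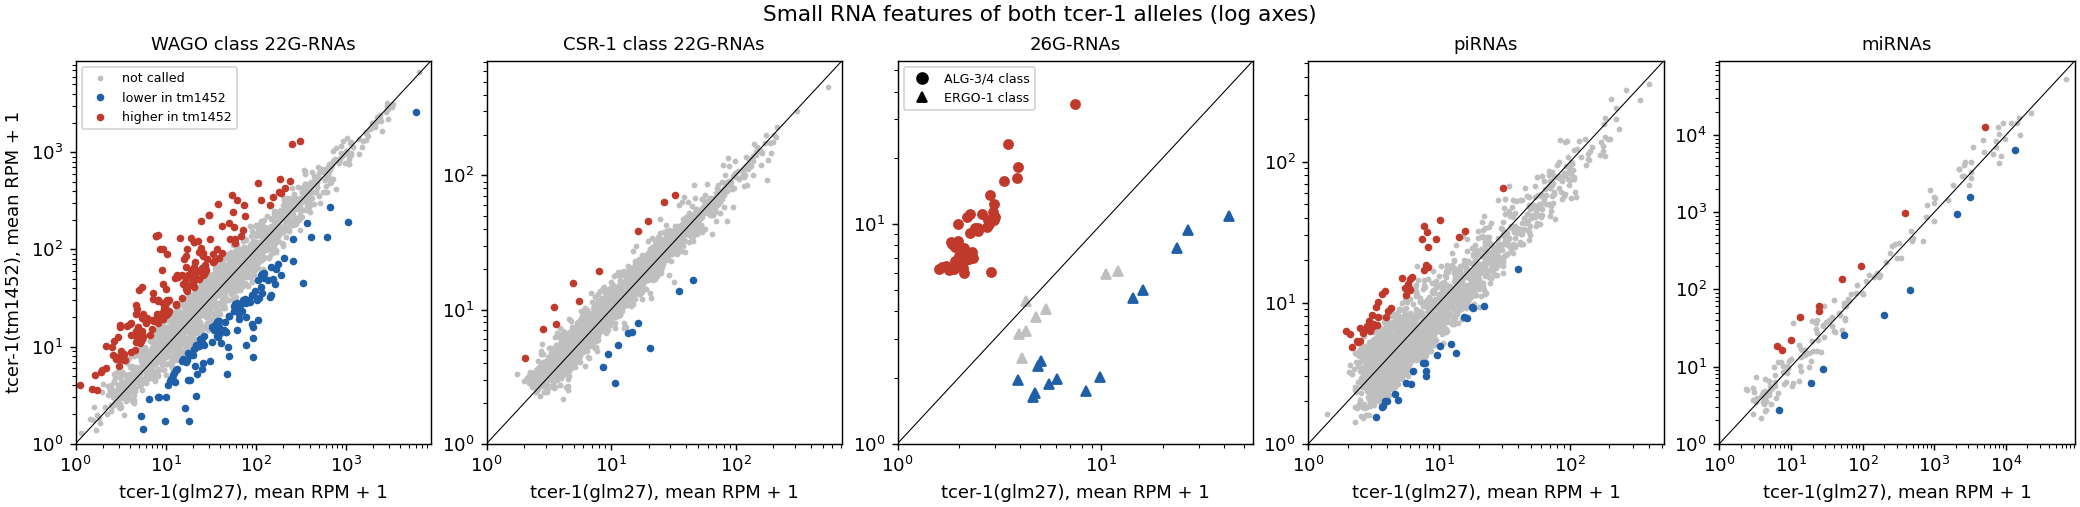
Mean RPM + 1 of each feature in *tcer-1(glm27)* (x axis) and *tcer-1(tm1452)* (y axis), both on log scales, in panels for WAGO class 22G-RNAs, CSR-1 class 22G-RNAs, 26G-RNAs (circles for the ALG-3/4 class, triangles for the ERGO-1 class), piRNAs and miRNAs; coloured points are features called lower (blue) or higher (red) in *tcer-1(tm1452)* and the line marks equality. WAGO class 22G-RNAs scattered to both sides (123 lower, 178 higher), while ALG-3/4 class 26G-RNAs lay above the line and ERGO-1 class 26G-RNAs below it.

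WAGO class 22G-RNAs were lost at some genes in *tcer-1(tm1452)* alone. At *cht-2* (II, 8520925 to 8523490), a chitinase gene, they stood at 90.1, 94.8 and 89.1 RPM in wildtype and 95.4, 91.6 and 90.1 in *tcer-1(glm27)* but at 5.57, 6.06 and 8.67 in *tcer-1(tm1452)*, 13.6-fold lower in mean RPM than in *tcer-1(glm27)* (log2 difference -3.61, SE 0.13, limma adjusted p = 3.35e-07). *tcer-1(glm27)* lay at the wildtype level there, with all 3 *tcer-1(tm1452)* libraries far below. T25D3.3 (II, 152583 to 154945) had the same pattern, at 36.5, 40.04 and 37.3 RPM in wildtype, 46.8, 49.1 and 45.1 in *tcer-1(glm27)* and 3.92, 2.87 and 5.80 in *tcer-1(tm1452)* (-3.25), although it overlaps another gene on its strand and the reads of the pair may not be separable. At C08F11.7 (IV, 13637275 to 13638666) both alleles were under wildtype: 236, 258 and 244 RPM in wildtype, 78.0, 76.6 and 76.0 in *tcer-1(glm27)* and 7.59, 8.02 and 12.7 in *tcer-1(tm1452)* (-2.93, SE 0.16, limma adjusted p = 2.51e-06). The 3 groups formed 3 separate levels at this gene.

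In other genes *tcer-1(glm27)* stood above both wildtype and *tcer-1(tm1452)*. At *vab-10* (I, 11747424 to 11804991), a spectraplakin that links the cytoskeleton to cell attachments, 22G-RNAs were 29.0, 27.2 and 26.2 RPM in wildtype, 40.7, 41.4 and 50.8 in *tcer-1(tm1452)* and 326, 347 and 333 in *tcer-1(glm27)* (log2 difference -2.90, SE 0.09, limma adjusted p = 1.52e-07). At F42G4.2, an ALG-3/4 target gene on chromosome II, they were 7.11, 8.70 and 7.33 in wildtype, 15.7, 17.0 and 16.4 in *tcer-1(tm1452)* and 140, 143 and 139 in *tcer-1(glm27)* (-3.03). Both alleles were above wildtype at these genes, *tcer-1(glm27)* much more so.

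Among genes with higher WAGO class 22G-RNAs in *tcer-1(tm1452)*, several had lost them in *tcer-1(glm27)*. Y38F2AR.12 (IV, 2399484 to 2412420) had the widest gap of the class, at 177, 177 and 174 RPM in wildtype, 131, 132 and 147 in *tcer-1(tm1452)* and 7.12, 6.41 and 6.81 in *tcer-1(glm27)* (log2 difference 4.15, SE 0.06, limma adjusted p = 8.50e-09), and it overlaps 2 other genes on its strand. *rimb-1* (III, 1788333 to 1807147), whose product binds RIM at presynaptic active zones, was alike at 96.9, 97.8 and 91.7 RPM in wildtype, 128, 133 and 159 in *tcer-1(tm1452)* and 6.83, 6.88 and 8.07 in *tcer-1(glm27)* (4.09, SE 0.09), with 1 overlapping gene on its strand. The mechanosensory channel gene *trp-4* was 220, 228 and 227 in wildtype, 85.0, 84.8 and 98.4 in *tcer-1(tm1452)* and 10.3, 9.80 and 7.88 in *tcer-1(glm27)* (3.13, SE 0.10). At all 3 genes *tcer-1(glm27)* was more than 9-fold under *tcer-1(tm1452)* with no overlap. B0001.5 (2.99) had this order too, at 304, 302 and 311 RPM, then 190, 187 and 207, then 23.6, 24.5 and 22.7. F07B7.1 and W09B7.1 (both 2.88) carry identical values and share all their exonic 22-base words with other loci, so they count as 1 measurement.

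In other higher genes *tcer-1(tm1452)* stood above both wildtype and *tcer-1(glm27)*. At *cpr-9* (V, 12003053 to 12004584), a cathepsin B-like protease, 22G-RNAs were 3.75, 4.72 and 3.59 RPM in wildtype, 7.43, 8.26 and 8.96 in *tcer-1(glm27)* and 91.3, 93.9 and 112 in *tcer-1(tm1452)* (log2 difference 3.44, SE 0.12, limma adjusted p = 2.94e-07). F01F1.3 was 24.8, 22.0 and 21.3 in wildtype, 15.3, 11.6 and 13.6 in *tcer-1(glm27)* and 138, 134 and 118 in *tcer-1(tm1452)* (3.18). The F-box gene *fbxa-136*, 14.2% of whose exonic 22-base words occur elsewhere, was 44.0, 42.5 and 42.3 in wildtype, 52.2, 55.4 and 52.6 in *tcer-1(glm27)* and 350, 355 and 374 in *tcer-1(tm1452)* (2.73, SE 0.05). At each of these genes wildtype and *tcer-1(glm27)* sat near each other and *tcer-1(tm1452)* stood apart.

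**Figure D3:**
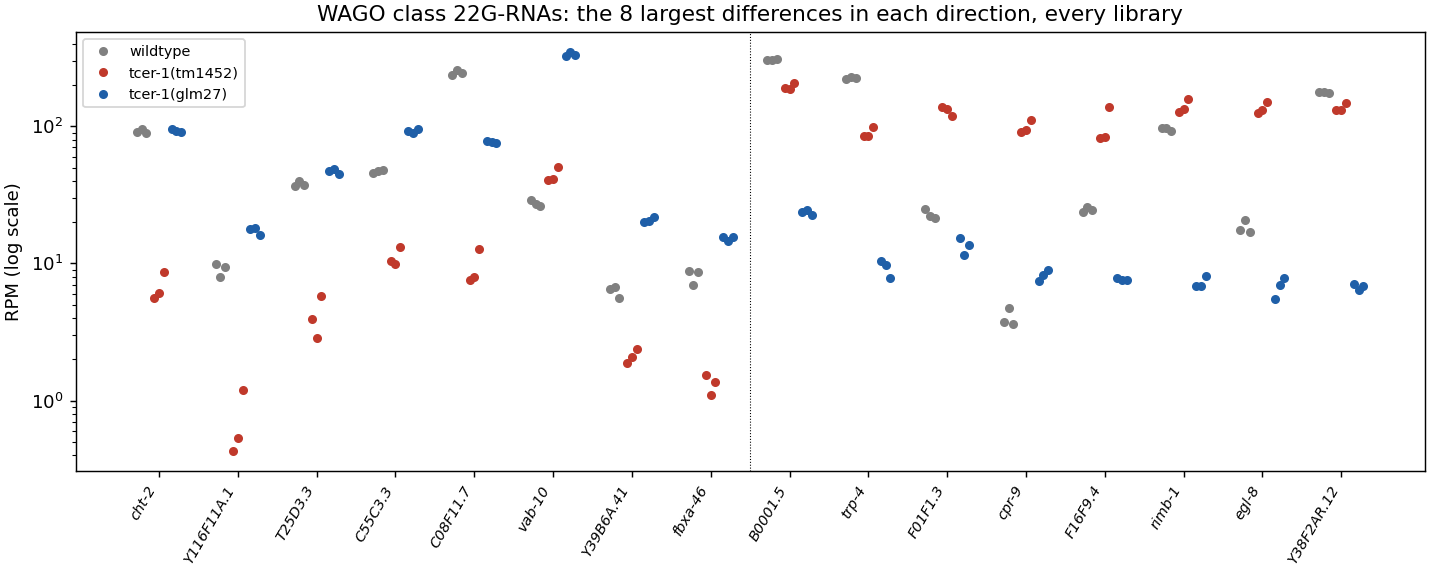
RPM (log scale) of the 8 WAGO class genes with the largest differences in each direction, with 1 point per library for each of the 3 groups; the dotted line parts genes lower in *tcer-1(tm1452)* from those higher. The 3 libraries of a group sit close together at many genes. However, *tcer-1(tm1452)* replicate 3 stands apart at some, such as F16F9.4 (81.7, 83.3 and 139 RPM) and Y116F11A.1 (0.43, 0.53 and 1.20). Wildtype lies now with one allele (*cht-2*, near 90 RPM in wildtype and *tcer-1(glm27)*) and now with the other (Y38F2AR.12).

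Each allele was also set against wildtype. The comparisons share the wildtype libraries with each other and the mutant libraries with the direct contrast, so these counts only describe where a call came from. Of the 154 genes on the lower side, 56 were lower than wildtype in *tcer-1(tm1452)* with no call in *tcer-1(glm27)*, 30 were higher in *tcer-1(glm27)* with no call in *tcer-1(tm1452)*, 25 were lower in both, 12 higher in both, 27 called in neither and 4 called in opposite directions. Of the 239 higher genes, 92 were higher than wildtype in *tcer-1(tm1452)* with no call in *tcer-1(glm27)*, 76 were lower in *tcer-1(glm27)* with no call in *tcer-1(tm1452)*, 18 were lower in both, 15 higher in both, 33 called in neither and 5 called in opposite directions. The 9 opposite genes were 0.111% of the features tested. One was *egl-8* (V, 20818 to 43704), phospholipase C beta, at 17.5, 20.7 and 17.0 RPM in wildtype, 125, 130 and 151 in *tcer-1(tm1452)* and 5.49, 6.95 and 7.83 in *tcer-1(glm27)* (log2 difference 4.14, SE 0.13, limma adjusted p = 2.03e-07). Another was Y51A2A.16 (V, 18280113 to 18280878), an ERGO-1 target gene, at 20.8, 16.9 and 16.5 in wildtype, 0.67, 0.74 and 0.94 in *tcer-1(tm1452)* and 41.3, 40.6 and 38.4 in *tcer-1(glm27)*, the widest gap of any 22G-RNA gene (-4.53, SE 0.10, limma adjusted p = 3.47e-08). Wildtype lay between the alleles at both.

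The WAGO class genes named by the study did not part the alleles in the same way. *scrm-4*, which encodes a phospholipid scramblase, had 81.7, 82.8 and 81.7 RPM of 22G-RNAs in wildtype, 8.26, 7.75 and 7.67 in *tcer-1(tm1452)* and 9.75, 9.98 and 8.73 in *tcer-1(glm27)*. The alleles differed there by -0.24 (SE 0.07, limma adjusted p = 0.0279), far less than either differed from wildtype. Y102A5C.36 was 289, 289 and 265 in wildtype, 31.0, 32.3 and 35 in *tcer-1(tm1452)* and 26, 23.3 and 24.6 in *tcer-1(glm27)* (0.40, adjusted p = 0.00229 by limma). F15D4.5 had 1968, 1949 and 1775 in wildtype, 208, 214 and 324 in *tcer-1(tm1452)* and 162, 162 and 154 in *tcer-1(glm27)* (0.61, adjusted p = 0.0167 by limma). None of these genes passed the 2-fold limit between the alleles.

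In the CSR-1 class, the genes furthest apart besides *tcer-1* were F10G7.10 and *lrp-2*, an LDL receptor-related gene, on the lower side. F10G7.10 had 23.6, 22.8 and 23.7 RPM in wildtype, 20.7, 19.5 and 18.7 in *tcer-1(glm27)* and 4.03, 4.38 and 4.18 in *tcer-1(tm1452)* (log2 difference -1.99, SE 0.07, limma adjusted p = 2.78e-07), and *lrp-2* had 8.36, 9.61 and 11.4 in *tcer-1(glm27)* and 1.82, 1.67 and 2.02 in *tcer-1(tm1452)* (-1.92). The genes furthest apart on the higher side were all on chromosome X: *hda-4*, a class II histone deacetylase that overlaps another gene on its strand (1.67), *madd-3* (1.58) and *gakh-1*, a cyclin G-associated kinase homolog (1.34). For *hda-4* the values were 4.99, 5.38 and 4.63 in wildtype, 4.18, 4.35 and 3.38 in *tcer-1(glm27)* and 14.5, 13.9 and 15.9 in *tcer-1(tm1452)*. Both alleles kept the great majority of CSR-1 class genes within 2-fold of each other, the class median being 0.09.

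By chromosome, genes with higher 22G-RNAs in *tcer-1(tm1452)* were spread unevenly. On the X, 66 of 344 genes were higher (19.2%) and 12 lower (3.49%), while on the autosomes 164 of 4919 were higher (3.33%) and 139 lower. Chromosomes I, II and III had 27 of 1172, 18 of 963 and 26 of 1069 genes higher, and IV and V had 44 of 883 and 49 of 832. Leaving out each mutant library in turn kept the X count between 61 (17.7%, without *tcer-1(tm1452)* replicate 3) and 70. The shares over all genes mix classes, since 8.62% of WAGO class genes were higher on all chromosomes together but 0.349% of CSR-1 class genes. The X genes were mostly WAGO class, 64 of 285 being higher (22.5%). On the autosomes the higher share of WAGO class genes ran from 4.20% (II) to 10.8% (V). In the CSR-1 class, 4 of the 11 higher genes were on the X, where only 59 of that class were tested. Against wildtype, 31 of the 66 were lower in *tcer-1(glm27)* alone and 21 higher in *tcer-1(tm1452)* alone. The median log2 difference from wildtype on the X was -0.57 in *tcer-1(glm27)* and -0.23 in *tcer-1(tm1452)*, against -0.36 and -0.29 on the autosomes. *nhr-48*, a nuclear hormone receptor gene on the X, had 14.6, 14.9 and 14.5 RPM in wildtype, 35.5, 36.8 and 39.8 in *tcer-1(tm1452)* and 4.12, 4.11 and 3.83 in *tcer-1(glm27)* (log2 difference 2.93, SE 0.07, limma adjusted p = 3.47e-08). The lunapark gene *lnp-1*, which shapes the endoplasmic reticulum, was alike at 14.2, 13.5 and 14.2, then 40.1, 38.3 and 41.7, then 4.80, 5.06 and 3.58 (2.91), and the DOT1-family gene *dot-1.2* was 36, 40.1 and 35.8 in wildtype, 23.5, 26 and 27.8 in *tcer-1(tm1452)* and 4.18, 3.14 and 3.86 in *tcer-1(glm27)* (2.50). No test of the chromosome pattern was made, and 207 genes could not be placed.

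26G-RNAs parted the alleles by class. Summed over all 1399 ALG-3/4 class genes listed, 26G-RNAs were 49.1, 53.4 and 65.8 RPM in wildtype, 1247, 1400 and 1732 in *tcer-1(tm1452)* and 296, 310 and 259 in *tcer-1(glm27)*. *tcer-1(tm1452)* was 5.06-fold above *tcer-1(glm27)*, which was itself above wildtype, with no overlap. ERGO-1 class 26G-RNAs, over 123 genes, went the other way at 212, 193 and 236 RPM in wildtype, 92.7, 96.8 and 62.4 in *tcer-1(tm1452)* and 296, 213 and 187 in *tcer-1(glm27)*. Here *tcer-1(glm27)* overlapped wildtype and *tcer-1(tm1452)* was 2.76-fold below it. Each share of reads gave the smallest p an exact permutation test allows here, 0.1. In bulk animals, fewer cells of a type and less RNA per cell cannot be told apart.

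**Figure D4:**
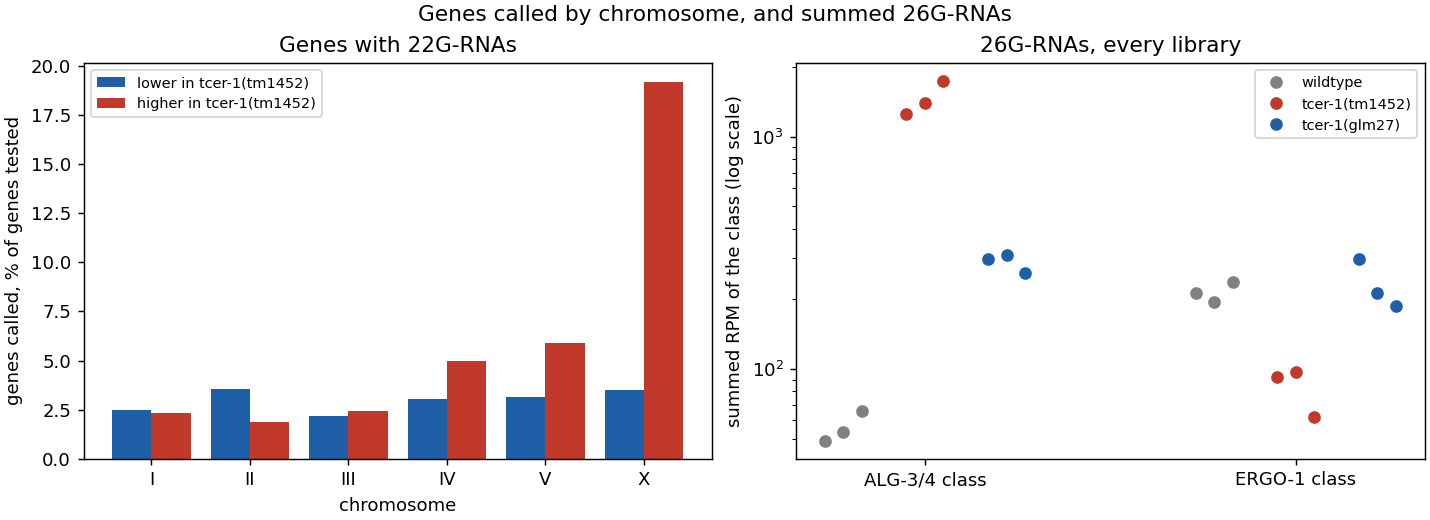
Left, percent of genes with 22G-RNAs called lower or higher in *tcer-1(tm1452)* on each chromosome (bars from 0); right, summed 26G-RNAs of the ALG-3/4 and ERGO-1 classes in RPM (log scale), with 1 point per library. The X bar for higher genes reaches 19.2%, and the ALG-3/4 sums step from under 66 RPM in wildtype to over 1200 in *tcer-1(tm1452)*.

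Gene by gene, 45 ALG-3/4 class 26G-RNA features passed the filter, all of them called higher, but 40 passed only through *tcer-1(tm1452)*, so that count is fixed by the filter and the sums above carry the comparison. The widest gap was at C38C10.3 (III, 9384123 to 9385643), at 0.60, 0.73 and 0.31 RPM in wildtype, 16.1, 16.6 and 33.9 in *tcer-1(tm1452)* and 2.32, 3.10 and 2.03 in *tcer-1(glm27)* (log2 difference 2.66, SE 0.28, limma adjusted p = 0.000128), although 57.4% of its exonic 22-base words occur elsewhere. C05C12.5 (2.30) and K11C4.1 (2.28) followed, each near or under 1.5 RPM in *tcer-1(glm27)* and above 5 in *tcer-1(tm1452)*. In the ERGO-1 class, 22 features passed, 14 were lower and 0 higher, also at an unadjusted p under 0.05 by limma, but 10 of the 22 reached a mean of 2 RPM in *tcer-1(glm27)* and not in *tcer-1(tm1452)*, so here too the sums carry the comparison. Y17D7C.3, a pseudogene on V, had 33.7, 26.5 and 38.8 RPM in wildtype, 53.1, 40.3 and 30.8 in *tcer-1(glm27)* and 10.6, 10.7 and 8.42 in *tcer-1(tm1452)* (-1.94, SE 0.21, limma adjusted p = 0.000147), so that *tcer-1(tm1452)* alone was low. F55C9.3 (-2.26) and Y116F11A.1 (-2.27) were also low there, at 0.87, 0.88 and 0.44 and at 1.01, 0.71 and 1.31 RPM.

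Of 537 ALG-3/4 target genes with 22G-RNAs tested, 54 were higher (10.1%) and 21 lower (3.91%), against 4.37% and 2.82% of all genes with 22G-RNAs. However, 30 of the 537 reached a mean of 2 RPM in *tcer-1(tm1452)* alone, and 25 of the 54 are among them. Over the other 507 genes, 29 were higher (5.72%) and 21 lower (4.14%). The higher ones included *nhr-229*, a nuclear hormone receptor gene with 20.0% of its exonic 22-base words elsewhere, at 14.9, 15.3 and 15 RPM in wildtype, 153, 162 and 208 in *tcer-1(tm1452)* and 38.1, 43.3 and 40.9 in *tcer-1(glm27)* (log2 difference 2.06, SE 0.11, limma adjusted p = 2.51e-06). The sperm-specific family genes *ssp-34* (1.58), *ssp-16* (1.39) and *ssp-31* (1.18) were higher too, but passed the filter through *tcer-1(tm1452)* alone. *ssp-34* was 0.64, 0.83 and 0.31 in wildtype, 6.18, 7.28 and 10.4 in *tcer-1(tm1452)* and 1.62, 1.73 and 2.57 in *tcer-1(glm27)*. Wildtype was lowest and *tcer-1(tm1452)* highest at each of them. Of the ERGO-1 target genes tested, 20 were lower (19.6%) and 5 higher (4.90%), so that the lower share stood above the 2.82% of all genes with 22G-RNAs and the higher share was near their 4.37%. Lower ones were Y51A2A.16, Y116F11A.1 (17.7, 18.1 and 16.0 RPM in *tcer-1(glm27)*, 0.43, 0.53 and 1.20 in *tcer-1(tm1452)*, log2 difference -3.43) and the F-box pseudogene *fbxa-46* (-2.80). Y69A2AR.31 was higher (1.86) but far under wildtype in both alleles, at 181, 178 and 176 RPM in wildtype, 25.9, 27.2 and 32.7 in *tcer-1(tm1452)* and 7.45, 7.33 and 6.68 in *tcer-1(glm27)*, and it overlaps 3 genes on its strand. ZK402.3 (1.15) and ZK402.2 (1.11) share most of their sequence with other loci and are uncertain.

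At C05C12.5, the ALG-3/4 class gene above, mRNA was 6.13, 3.14 and 4.56 normalized counts in wildtype, 179, 201 and 196 in *tcer-1(tm1452)* and 37.6, 40.5 and 49.2 in *tcer-1(glm27)*. Markers of spermatogenesis moved with these classes, beside 11.4% of all mRNAs tested higher and 8.08% lower in *tcer-1(tm1452)*. Of the 35 major sperm protein (*msp*) genes, 30 passed the mRNA filter and 30 were higher in *tcer-1(tm1452)*. Their summed mRNA was 556 to 762 in wildtype, 4086 to 5262 in *tcer-1(glm27)* and 20242 to 23318 in *tcer-1(tm1452)*. All 6 yolk protein genes lay lower with an adjusted p under 0.05 by limma (-1.28 to -0.47), *vit-1* (-1.02) and *vit-3* (-1.28) past 2-fold, and the yolk mRNA sum of *tcer-1(tm1452)* was 1.72-fold under that of *tcer-1(glm27)*. Among 8 oocyte and embryo markers 0 were called. Of them, only *perm-2* (-0.30) and *perm-4* (-0.26) had an adjusted p under 0.05 by limma, both lower. The larval marker *lin-28* was also lower under 2-fold (-0.37, limma adjusted p = 0.000655), while *lin-14* did not differ by the test (0.03). The adult collagen *col-19* differed by 0.64. The part of stage and sperm content in these small RNA differences was not tested.

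Of 25 23H-RNAs tested, 3 were higher (12%) and 0 lower, against 4.38% and 2.86% of all features. Of these, 2 are 1 locus of F43E2.6 read at different lengths, shown here because they start at the same base and differ only at the 3′ end (II:7367591-7367612, plus strand, with the first base in capitals).
F43E2.6 23H-RNA, shorter form: Tttgccgatgtttctgagatg
F43E2.6 23H-RNA, longer form: Tttgccgatgtttctgagatgt

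The longer form had 4.38, 6.32 and 6.18 RPM in wildtype, 34.4, 37.9 and 66.9 in *tcer-1(tm1452)* and 14.9, 16.2 and 16.0 in *tcer-1(glm27)* (log2 difference 1.44, SE 0.23, limma adjusted p = 0.00180), and the shorter form of F43E2.6 was also called higher (1.38). The groups formed 3 levels, with wildtype lowest. At an unadjusted p under 0.05, limma gave 11 23H-RNAs higher and 2 lower. The third called, listed at *mir-5592*, starts with G and lies at 2 places in the genome. It was 6.15, 13.2 and 8.88 RPM in wildtype, 25.9, 27.5 and 24.7 in *tcer-1(tm1452)* and 11.5, 13.4 and 11.97 in *tcer-1(glm27)* (1.02, limma adjusted p = 0.00694), and fell under 2-fold without *tcer-1(tm1452)* replicate 2 or *tcer-1(glm27)* replicate 1 (0.98 each). Of 33 23H-RNA target genes with 22G-RNAs, 10 were lower (30.3%) and 2 higher (6.06%), against 2.82% and 4.37% of all genes with 22G-RNAs. The lower ones overlap the ERGO-1 genes above, so the count is not a separate result. Y116F11A.1 is listed as a target of both classes with the same values. E01G4.5 and Y116A8B.1 are ERGO-1 class 26G-RNA genes. W03D2.15, an ncRNA gene on IV, had 25.5, 20.5 and 25.5 RPM in wildtype, 35, 35 and 32.9 in *tcer-1(glm27)* and 4.89, 5.45 and 5.49 in *tcer-1(tm1452)* (-2.49, SE 0.09, limma adjusted p = 4.19e-07), and E01G4.5 on II had 144, 136 and 147, then 168, 162 and 154, then 42, 36.8 and 49.6 (-1.90). *tcer-1(tm1452)* alone was low at both. The genes higher there, Y57G11C.57 (1.06) and Y57G11C.1145 (1.60), lie side by side on IV, share 55.0% and 89.2% of their exonic 22-base words with other loci, and stood highest in replicate 3, without which Y57G11C.57 lost its call (0.77).

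piRNAs were the class in which a single library mattered most. All piRNAs called lay on chromosome IV, where piRNA genes are clustered. Summed over all piRNAs they were 34813, 35500 and 37985 RPM in wildtype, 33437, 32889 and 15470 in *tcer-1(tm1452)* and 32458, 26049 and 29587 in *tcer-1(glm27)*, so that *tcer-1(tm1452)* replicate 3 held less than any other library and the other replicates lay above *tcer-1(glm27)*. Of 1911 tested, 24 were lower (1.26%) and 46 higher (2.41%), both under the 2.86% and 4.38% of all features. The median log2 difference was -0.29. However, 36 of the 1911 reached a mean of 2 RPM in *tcer-1(tm1452)* alone, and 9 of the 46 are among them. Over the other 1875, 37 were higher (1.97%) and 24 lower (1.28%). Without replicate 3 the counts over all 1911 were 2 lower and 129 higher, and the median was 0.14. The piRNAs with the widest gaps are shown with the first base in capitals, since piRNAs bound by PRG-1 typically start with U.
21ur-8083: Ucugacuguaaauuuuuuuag
21ur-7999: Uucugugaaauuucgauuauc
21ur-6254: Uuauggaacuggaagugcuuc

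21ur-8083 (IV:14514356-14514376, plus strand) had 9.12, 9.72 and 13.5 RPM in wildtype, 30.7, 32.6 and 29.7 in *tcer-1(tm1452)* and 7.66, 6.59 and 7.03 in *tcer-1(glm27)* (log2 difference 1.98, SE 0.13, limma adjusted p = 9.72e-06). 21ur-7999 (IV:15705221-15705241, minus strand) was 5.16, 9.16 and 8.11 in wildtype, 28.8, 27.5 and 45.5 in *tcer-1(tm1452)* and 7.27, 6.46 and 6.22 in *tcer-1(glm27)* (2.16, SE 0.23). In both, *tcer-1(tm1452)* was alone above the rest in all 3 libraries. 21ur-6254 (IV:6187129-6187149, plus strand) was at 3 levels, from 31.2, 33.8 and 31.2 in wildtype to 15.6, 10.8 and 11.2 in *tcer-1(glm27)* and 3.56, 4.85 and 1.87 in *tcer-1(tm1452)* (-1.66, SE 0.24). The call of 21ur-4396 (-1.45) rested on replicate 3, at 4.86 RPM against 23.3 and 20.7 in the other *tcer-1(tm1452)* libraries, and its difference without it was -0.80. It lost its call also without any 1 *tcer-1(glm27)* or wildtype library too. Most *C. elegans* piRNA genes carry an upstream motif whose core, CTGTTTCA, was searched on the strand of the piRNA in the 60 bases before each of the 1911. It was present for 29.5% of all, for 25 of the 46 higher (54.3%), for 73 of the 129 higher without replicate 3 (56.6%) and for 3 of the 24 lower (12.5%). With any base in the first place (NTGTTTCA, which includes the former) it was present for 48.9% of all, 56.5% of the higher and 29.2% of the lower. A match is only these letters in that window.

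miRNAs held the clearest family pattern. The mir-35 family, made in oocytes and embryos and needed for embryonic development, was lower in *tcer-1(tm1452)*. Of 12 arms tested 8 were called lower, against 2.86% of all features. At an adjusted p under 0.05 of any size, 11 arms were lower, against 904 of all 8073 features. The 3p arms are shown because they share the seed, bases 2 to 8, in capitals. All lie on chromosome II, miR-35 to miR-41 between 11537668 and 11538389 and miR-42 at 11889870 to 11889891, on the plus strand.
miR-35-3p: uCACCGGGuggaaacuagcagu
miR-36-3p: uCACCGGGugaaaauucgcaug
miR-37-3p: uCACCGGGugaacacuugcagu
miR-38-3p: uCACCGGGagaaaaacuggagu
miR-39-3p: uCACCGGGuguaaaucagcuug
miR-40-3p: uCACCGGGuguacaucagcuaa
miR-41-3p: uCACCGGGugaaaaaucaccua
miR-42-3p: uCACCGGGuuaacaucuacaga

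Summed over its listed arms, the family stood at 46742, 41802 and 42851 RPM in wildtype, 37394, 34989 and 35995 in *tcer-1(glm27)* and 18892, 18382 and 19743 in *tcer-1(tm1452)*, 1.90-fold lower than in *tcer-1(glm27)*. The 3 groups did not overlap. miR-40-3p was 4624, 4346 and 4113 in wildtype, 3165, 3158 and 3246 in *tcer-1(glm27)* and 1551, 1600 and 1562 in *tcer-1(tm1452)* (log2 difference -1.02, SE 0.05, limma adjusted p = 2.10e-06). miR-42-3p was 163, 121 and 141 in wildtype, 195, 191 and 200 in *tcer-1(glm27)* and 48.8, 47.3 and 42.5 in *tcer-1(tm1452)* (-2.06, SE 0.10, limma adjusted p = 1.95e-06). The neighbour of miR-42, miR-43-3p, has another seed and was also lower (-1.38). miR-38-3p was 137, 119 and 38.7 in *tcer-1(tm1452)* and 474, 408 and 477 in *tcer-1(glm27)* (-2.38, and -1.82 without replicate 3). Calls of miR-39-3p (-0.92) and miR-41-3p (-0.72) were lost without that library, that of miR-41-3p also without each *tcer-1(glm27)* or wildtype library, while miR-35-3p (-0.70) and miR-37-3p (-0.89) passed the adjusted p but not the 2-fold limit. The arm miR-41-5p did not pass, at 50.0, 46.6 and 98 in *tcer-1(tm1452)* and 56.4, 64.7 and 42.1 in *tcer-1(glm27)*.

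The miRNAs listed as heterochronic, among them *lin-4* and *let-7*, which time larval development, mostly ran the other way. Of their 14 arms tested 3 were called higher (*let-7*, miR-793 and miR-795-5p), against 4.38% of all features. At an adjusted p under 0.05 of any size, 7 arms were higher and 0 lower, against 1393 and 904 of all 8073 features. *let-7* and its relatives are shown with the shared seed in capitals, together with *lin-4*, whose seed is another.
let-7-5p: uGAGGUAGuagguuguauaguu
miR-48-5p: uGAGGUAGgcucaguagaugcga
miR-84-5p: uGAGGUAGuauguaauauuguaga
miR-241-5p: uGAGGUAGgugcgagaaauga
lin-4-5p: uCCCUGAGaccucaaguguga

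*let-7* (X:14744234-14744255, minus strand) had 258, 382 and 200 RPM in wildtype, 301, 431 and 427 in *tcer-1(glm27)* and 726, 749 and 1491 in *tcer-1(tm1452)* (log2 difference 1.29, SE 0.33, limma adjusted p = 0.0180). *lin-4* was 1329, 1279 and 1376 in wildtype, 2522, 2479 and 2773 in *tcer-1(glm27)* and 4158, 4513 and 3533 in *tcer-1(tm1452)* (0.64, SE 0.09, limma adjusted p = 0.000763). Replicate 3 of *tcer-1(tm1452)* was the highest library for *let-7* and the lowest of its group for *lin-4*, and without it *let-7* (0.95), miR-793 (0.78) and miR-795-5p (0.92) lost their calls. *let-7* (1.12) lost it also without *tcer-1(glm27)* replicate 1, and miR-793 without any 1 *tcer-1(glm27)* library (1.10 to 1.34). miR-48-5p (0.64) and miR-84-5p (0.63) passed the adjusted p under 2-fold, and miR-241-5p (1.68) did not pass it. Summed, the heterochronic list was 10062, 10791 and 9266 in wildtype, 14625, 16366 and 16077 in *tcer-1(glm27)* and 22173, 22561 and 27206 in *tcer-1(tm1452)*, 3 levels with no overlap.

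**Figure D5:**
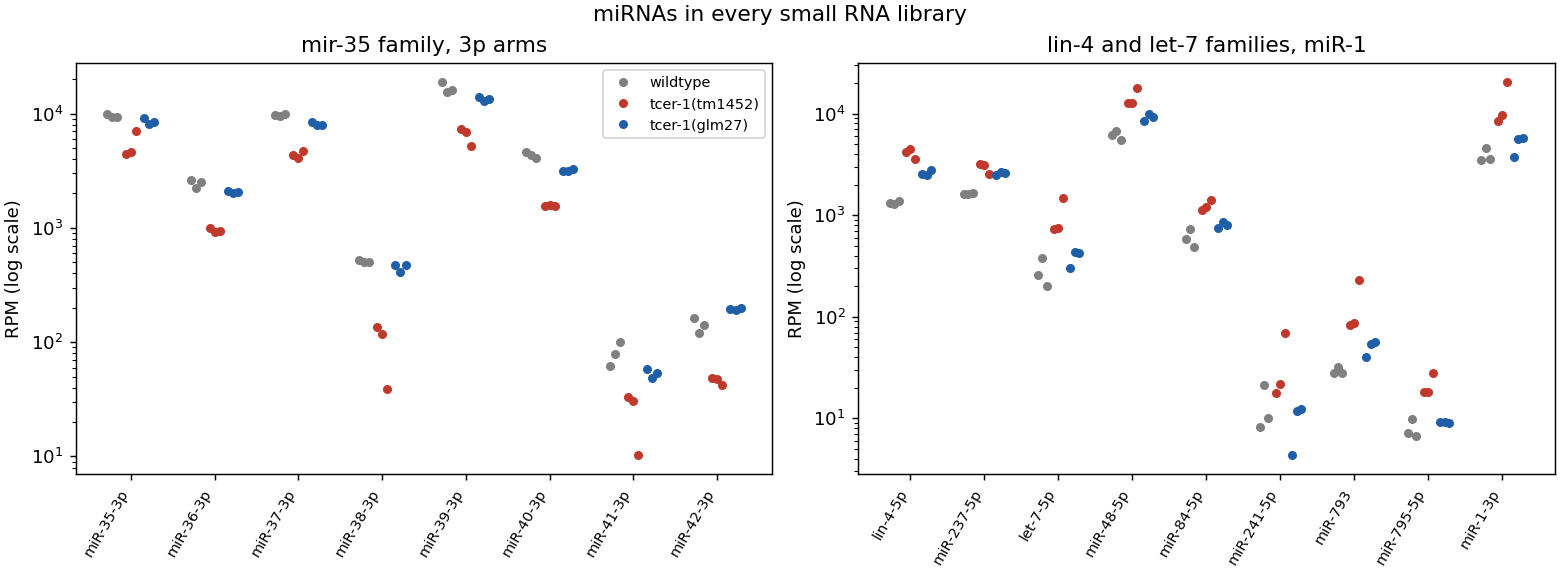
RPM (log scale) of the mir-35 family 3p arms (left) and of *lin-4*, the *let-7* family, miR-793, miR-795-5p and miR-1-3p (right), with 1 point per library for each of the 3 groups. The mir-35 family points of *tcer-1(tm1452)* lie lowest, and for *let-7* and miR-1-3p the spread of that group comes from 1 library far above its group.

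The other miRNAs called higher were miR-230-3p (1.498), miR-249-3p (1.47), the muscle miRNA miR-1-3p (1.26), miR-785-3p (1.18), miR-790-5p (1.07), miR-1022-5p (1.07) and miR-230-5p (1.06). miR-1-3p was 3500, 4581 and 3571 RPM in wildtype, 3730, 5635 and 5784 in *tcer-1(glm27)* and 8419, 9593 and 20557 in *tcer-1(tm1452)*. Of the 10 miRNAs called higher only miR-249-3p, at 12.8, 14.1 and 25.9 RPM in *tcer-1(tm1452)* and 4.87, 5.76 and 5.55 in *tcer-1(glm27)*, was called without replicate 3. Without it the others named here differed by 0.92 (miR-230-3p), 0.86 (miR-1-3p), 0.73 (miR-785-3p), 0.84 (miR-790-5p), 0.86 (miR-1022-5p) and 0.72 (miR-230-5p). miR-230-3p and miR-785-3p lost their calls also without any 1 *tcer-1(glm27)* library or wildtype replicate 3 (miR-230-3p without wildtype replicate 1 as well), miR-1-3p (1.05) without its replicate 1 and miR-230-5p without its replicate 1 (0.94) or 3 (1.03). No arm of the mir-51 family (9 tested), the mir-58 family (8) or the mir-64 family (7) was called by limma, and at an unadjusted p under 0.05 of any size 1, 3 and 0 arms of these families were lower and 2, 1 and 0 higher.

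mRNA was read for genes with called 22G-RNAs, beside 8.08% of all mRNAs tested lower and 11.4% higher in *tcer-1(tm1452)*. Of 147 genes with lower 22G-RNAs and a tested mRNA, 14 had lower (9.52%) and 13 higher mRNA (8.84%). Both were near the shares of all mRNAs but above those of genes whose 22G-RNAs were not called. Among the latter, 3.39% had lower and 2.65% higher mRNA. Of 205 with higher 22G-RNAs, 17 had lower (8.29%) and 55 higher mRNA (26.8%). Of the 55, 42 are ALG-3/4 target genes, whose 22G-RNAs passed the filter in part through *tcer-1(tm1452)* alone (25 of 54). ALG-3/4 target genes were also 9 of the 13 with lower 22G-RNAs and higher mRNA, so higher mRNA there went with both directions. Among ALG-3/4 target genes not called, 12.6% had higher mRNA and 0 lower. In the WAGO class, 11 of 117 genes with lower 22G-RNAs had lower mRNA (9.40%) and 7 higher (5.98%), and of 146 with higher 22G-RNAs 17 had lower (11.6%) and 14 higher mRNA (9.59%), against 10.6% lower and 5.26% higher among WAGO class genes not called. Opposite changes were seen at C08F11.7, where mRNA was 16.6, 16.9 and 12.4 normalized counts in wildtype, 224, 272 and 249 in *tcer-1(tm1452)* and 26.3, 28.5 and 33.4 in *tcer-1(glm27)* (log2 difference 3.04, limma adjusted p = 1.34e-08) while its 22G-RNAs were lowest in *tcer-1(tm1452)*. C55C3.3, with 22G-RNAs at 10.5, 9.85 and 13.1 RPM in *tcer-1(tm1452)* and 93.0, 89.5 and 95.5 in *tcer-1(glm27)* (-2.96), had mRNA at 253.7, 234.6 and 248.1 against 53.1, 41.2 and 50.6 (2.33). For *cpr-9*, with more 22G-RNAs, mRNA was lower (-1.18, limma adjusted p = 1.25e-09). The same direction in both was seen at Y116F11A.1, whose mRNA was 19, 26.2 and 23.5 in *tcer-1(glm27)* and 0.84, 0 and 0 in *tcer-1(tm1452)*, at *fbxa-46* (mRNA difference -2.85) and at *his-31* (-2.05), a histone H4 gene with near-identical copies whose 22G-RNA difference was -1.07 (-0.97 and no longer called without *tcer-1(tm1452)* replicate 3). mRNA of *cht-2* (-0.31, limma adjusted p = 0.274), *egl-8* (-0.06) and *nhr-48* (0.07) did not differ by the test in spite of their 22G-RNA gaps.

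Among gene families by symbol, 12 of 96 F-box genes with 22G-RNAs were higher (12.5%) and 2 lower (2.08%). Of all genes with 22G-RNAs, 4.37% were higher and 2.82% lower. The median difference of the F-box genes, 0.12, was near the 0.10 of all those genes. The shares over all genes mix classes, and the families were not split by class. In the WAGO class 8.62% of genes were higher and 5.96% lower, against 0.349% and 0.317% in the CSR-1 class. *fbxa-166* was 21.7, 20.7 and 22.1 RPM in wildtype, 23.9, 25.1 and 22.3 in *tcer-1(glm27)* and 89.7, 96.6 and 118 in *tcer-1(tm1452)* (log2 difference 2.04). Of 28 nuclear hormone receptor genes, 3 were higher (10.7%; *nhr-48*, *nhr-229* and *nhr-64*, the last overlapping other genes on its strand) and *nhr-8* was lower (-1.26). Of 28 chemoreceptor genes, *srh-171* (1.64) and *sra-30* (1.05), which overlaps another gene on its strand, were higher (7.14%) and *str-68* (-1.07, and -0.96 and not called without *tcer-1(tm1452)* replicate 1) lower, and of 5 *pals* genes, a family tied to the response to intracellular pathogens, *pals-1* was lower (-1.49) and *pals-18* higher (1.05), the latter with 36% of its exonic 22-base words elsewhere and under 2-fold without *tcer-1(glm27)* replicate 3 (0.99). The sperm gene *spe-47* had lower 22G-RNAs (-1.29). None of the 38 MATH and BTB domain genes, 9 collagens, 9 C-type lectins or 39 small RNA pathway genes was called by limma. At an unadjusted p under 0.05 of any size, 8, 5, 0 and 12 of them were lower and 5, 1, 3 and 5 higher.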

How the data were processed

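Small RNA values are RPM that the authors deposited: reads of adapter-trimmed, size-selected libraries were assigned with tinyRNA to features of WormBase WS279 (WBcel235) and divided by the library's reads, with reads that match several places split between them. mRNA values were deposited as a normalized signal, which the authors made from RSEM estimates after fastp and STAR and scaled by DESeq2 size factors. Within their rounding to 2 decimals, RPM values under 2 were whole reads for only 91.2% to 93.0% of those above 0, so no count test was used, and the precision rests on the spread of 3 libraries per group. The 8073 features that averaged 2 RPM or more were fitted on log2(RPM + 1) with limma 3.58.1 in R 4.3.3 (moderated with a trend, all 9 libraries in 1 fit, Benjamini-Hochberg over all features). mRNA was fitted likewise on log2(normalized count + 1) for 17037 genes. The fold change on this scale understates that of low features.

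The alleles, lists and named features were chosen with earlier results of these data known. Named were *tcer-1*, 3 genes the study names, among called features without overlap the 8 largest differences each way in the WAGO class, 3 each way in the other 22G-RNA, 26G-RNA and 23H-RNA classes and 2 each way in piRNAs, up to 10 miRNAs each way, the heterochronic and mir-35 lists, genes opposite against wildtype, up to 5 each way with mRNA also called, and up to 4 per list. Class shares were compared by exact permutation. Alternatives were the pseudocount, the filter, the scaling, the fit, a replicate block and leaving out each library. The fitting was tested on simulated data. Shared sequence was read from WBcel235 as exonic 22-base words found elsewhere in the genome, and miRNA sequences are from RefSeq (WBcel235). Figures were drawn with Python 3.11.15 and matplotlib 3.10.9.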

Additional observations from a re-analysis of the deposited data

Results flagged for a closer look

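The 22G-RNAs of 9 genes were called against wildtype in opposite directions in the alleles. They were chosen for this, and the direct contrast of the alleles uses the same mutant libraries, so its values describe the gap and the difference was not tested independently. Lower in *tcer-1(tm1452)* and higher in *tcer-1(glm27)* than wildtype were Y51A2A.16 (log2 difference between the alleles -4.53), C25D7.12 (-3.13), Y39B6A.41 (-2.80) and F26A3.4 (-2.12). Higher in *tcer-1(tm1452)* and lower in *tcer-1(glm27)* were F20B6.5 (2.39), *lnp-1* (2.91), *nhr-48* (2.93), F16F9.4 (3.51) and *egl-8* (4.14). F20B6.5, *lnp-1*, *nhr-48* and F16F9.4 are on the X. F20B6.5 stood at 140, 148 and 147 RPM in wildtype, 297, 295 and 373 in *tcer-1(tm1452)* and 59.0, 61.2 and 60.8 in *tcer-1(glm27)*. F26A3.4 was the reverse, at 71.3, 76.5 and 67.6, then 31.8, 29.5 and 37.3, then 149, 144 and 145. C25D7.12 is a pseudogene with 88.6% of its exonic 22-base words found elsewhere, so its reads may belong to other loci. Y39B6A.41 overlaps another gene on its strand. Both comparisons with wildtype use the same 3 wildtype libraries.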

How the results depend on the processing

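Of the 115 named features 3, none of them called, changed sign when a library was left out: miR-41-5p (-0.15 to 0.38), miR-48-3p (-0.0672 to 0.48) and miR-84-3p (-0.0116 to 0.35). Of the other values of named features, 2248 kept direction and side of the threshold, 5 gained the call and the rest lost it, and all 44 mRNA counts stayed within 1.5 times. A pseudocount of 5 took the calls over all features to 128 lower and 182 higher, a filter of 10 RPM gave 184 higher, and no filter gave 619. piRNA calls were 2 lower and 9 higher with a pseudocount of 5, 9 and 11 with a filter of 10 RPM, 13 lower with the 6 mutant libraries alone and 6 lower at an adjusted p of 0.01. miRNAs higher numbered 4 without a filter, 5 with the 6 mutant libraries alone and 4 at an adjusted p of 0.01. ALG-3/4 class 26G-RNAs higher numbered 24 with a pseudocount of 5, 240 without a filter and 1 with a filter of 10 RPM, and ERGO-1 class 26G-RNAs lower 7 and 5 with the same pseudocount and stricter filter. Leaving out each library in turn gave 2 to 74 lower and 33 to 129 higher piRNAs and 1 to 18 higher miRNAs, and 217 to 282 lower and 343 to 407 higher features in all. Class shares that differed little changed sign without the 10 features of highest mean (WAGO class -2.45, CSR-1 class -0.12 and miRNAs 2.89 percentage points), where ALG-3/4 class 26G-RNAs moved to 0.245 and ERGO-1 class 26G-RNAs to -0.0337. With each mutant library left out, shares ranged from -2.20 to 1.31 (WAGO class), -0.106 to 0.478 (CSR-1 class), -0.815 to 0.524 (piRNAs) and -1.36 to 1.59 (miRNAs). For these shifts the cause was not tested. Deviations of same-numbered libraries of the alleles correlated at 0.378, -0.522 and -0.227. With 3 libraries per group, such values cannot decide whether the replicate numbers pair the libraries. A replicate block gave 228 lower and 354 higher. The limits are 3 libraries per group, 1 strain per allele, 1 library (*tcer-1(tm1452)* replicate 3) that stands apart, and RPM values that rest on 12900000 to 16000000 reads a library.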
